A study of Mus musculus with 12 samples.

Results

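Cxcr6 was followed as 1 gene (ENSMUSG00000048521) of the 32285 genes counted in T cells sorted from mouse brain. Levels are given in CD8, CD4 and γδ T cells, in CD8 clusters and clones, and in 6 pools of mice. Cxcr6 encodes a G protein-coupled chemokine receptor whose ligand, CXCL16, is made as a membrane-bound protein that can be shed from the cell surface. The receptor is a familiar marker of T cells that stay in tissue, where it is found with CD69 and the integrins CD49a and CD103. Naive T cells, which circulate through lymph nodes under the control of CCR7 and S1PR1, carry little of it.

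Each pool combined half-brain T cells of several female mice aged 9 months and was read as a 5′ RNA library plus an enriched receptor library. Mice without transgenes made up WT-1 (10 mice) and WT-2 (8 mice). 5XFAD-1 (4 mice) and 5XFAD-2 (3 mice) came from animals hemizygous for the 5XFAD transgenes, which are mutant human genes under a neuronal promoter and give amyloid plaques. The PS19 pool came from 4 mice hemizygous for mutant human tau under the mouse prion promoter, and the PS-5X pool from 4 mice with both sets of transgenes. All 4 genotypes were female littermates of 1 colony that joined the PS19 strain, on a mixed B6C3 background, with C57BL/6 congenic 5XFAD mice. PS19 and PS-5X are 1 pool each, and no value can be assigned to a single mouse. The replicate 2 pools of WT and 5XFAD went through a separate sequencing run, here the separate run, and the remaining pools through the common run.

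Cells were classed by the UMIs of their lineage genes. CD8 T cells (2 or more UMIs of Cd8a and Cd8b1, none of Cd4 or Trdc) numbered 465 to 4001 a pool, fewest in WT-1 and most in PS-5X. CD4 T cells numbered 148 to 810 a pool and γδ T cells 30 to 155. Levels are given as CPM, the UMIs of a gene in a group of cells scaled to 1000000 UMIs of all genes there. Classes carried the markers of their names that had not set them: Cd40lg was at 309.8 to 462 CPM in CD4 and 8.71 to 23.0 in CD8 T cells, and Trdv4 at 1880 to 2580 in γδ and at most 4.78 in the other classes. Median depth of CD8 T cells was 5736 to 7594 UMIs. Receptors identical in nucleotides were shared between WT-1 and other pools, 58 with 5XFAD-1, 41 with PS19 and 3 with PS-5X. Such a receptor was carried by 166 of the 554 WT-1 cells with both chains, 552 of 1838 in 5XFAD-1, 169 of 1725 in PS19 and 176 of 4131 in PS-5X. In which pool these cells began was not tested. Between PS19 and PS-5X 6 receptors were common to both, and 0 in any remaining pair. Cell barcodes were shared by 1 to 23 cells per pair of pools, none of them with the same receptor. WT-1, the smallest pool, takes part in most of this sharing, and fits between pools and between clone sizes are given with and without it.

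The gene lies at chr9:123806477-123811754 on the plus strand (GRCm38.p6), inside the span of Fyco1, a gene of the minus strand. Its start is shown because 5′ libraries read the RNA from this end, so the window holds the place where the counted molecules begin. The 300 bases from 250 before to 50 after the start, chr9:123806227-123806526 on the plus strand (RefSeq, GRCm38.p6), carry 1 match to the core TGTGGT bound by RUNX factors, on the minus strand, which the capitals mark at -10 from the start.
Cxcr6 promoter: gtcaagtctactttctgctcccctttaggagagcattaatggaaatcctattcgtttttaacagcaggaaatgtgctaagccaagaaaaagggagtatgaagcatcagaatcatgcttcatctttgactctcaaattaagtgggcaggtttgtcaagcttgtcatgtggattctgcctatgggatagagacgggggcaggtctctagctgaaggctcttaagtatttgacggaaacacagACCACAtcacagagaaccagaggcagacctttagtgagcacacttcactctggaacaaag
On either strand, 16.8% of 32851 promoters of this length hold TGTGGT. The NFAT core GGAAA, held by 61.3% of promoters, was matched at -210, -184 and -20. No match was found for the T-box core GGTGTGA (3.98% of promoters) or the AP-1 site TGANTCA (7.81%).

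Use of strand in counting is not stated in the submitters' processing notes. Whether reads of Fyco1 in the overlap entered the counts of Cxcr6 was not tested. Over all pools Fyco1 was at 44.4 CPM in CD8 T cells, where Cxcr6 was at 343, and at 59.97 in γδ T cells, where Cxcr6 was at 1252. The chemokine receptor gene Ccr9, 23.0 kb away, was at 9.46 in CD8 T cells, and Xcr1, 40.6 kb away on the other side, at 0.203.

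γδ T cells held the most Cxcr6 in every pool, more than 3 times the level of CD8 or CD4 T cells in each. In γδ T cells the WT pools stood at 1285 and 1286 CPM (replicate 1 first, as throughout), the 5XFAD pools at 1408 and 1417, PS19 at 863 and PS-5X at 1246. CD8 T cells held 336 and 257 in WT, 396 and 415 in 5XFAD, 217 in PS19 and 394 in PS-5X. CD4 T cells held 403 and 278 in WT, 458 and 374 in 5XFAD, 175 in PS19 and 266 in PS-5X. Every γδ value lay above every value of the other classes, and PS19 was the lowest pool in all 3. Between γδ and CD8 T cells the log2 difference was 1.75 ± 0.09 (SE), a 3.37-fold difference (95% interval 2.94 to 3.85, edgeR quasi-likelihood test with pool as block, adjusted p = 3.22e-12, higher in 6 of 6 pools), and 1.68 to 1.82 when each pool was left out. In that comparison 39.4% of the genes tested passed. Against CD4 T cells it was 1.92 ± 0.10 (adjusted p = 2.37e-12, edgeR, 6 of 6 pools, 37.5% of genes passing). CD8 and CD4 T cells were not separated: the fold was 1.12 (0.986 to 1.28, edgeR adjusted p = 0.19, 26.3% of genes passing), with CD8 higher in 3 of 6 pools. It passed with classes taken from clusters (0.38 on the log2 scale, edgeR adjusted p = 0.0087) and with no filter on low genes (0.20, adjusted p = 0.0035), over a range of 0.0035 to 0.69 in all alternatives. Fits with no such filter gave adjusted p-values far below the others (5.05e-224 for γδ against CD4 T cells), so calls made only there, and ranges that end there, are not relied on.

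**Figure D1:**
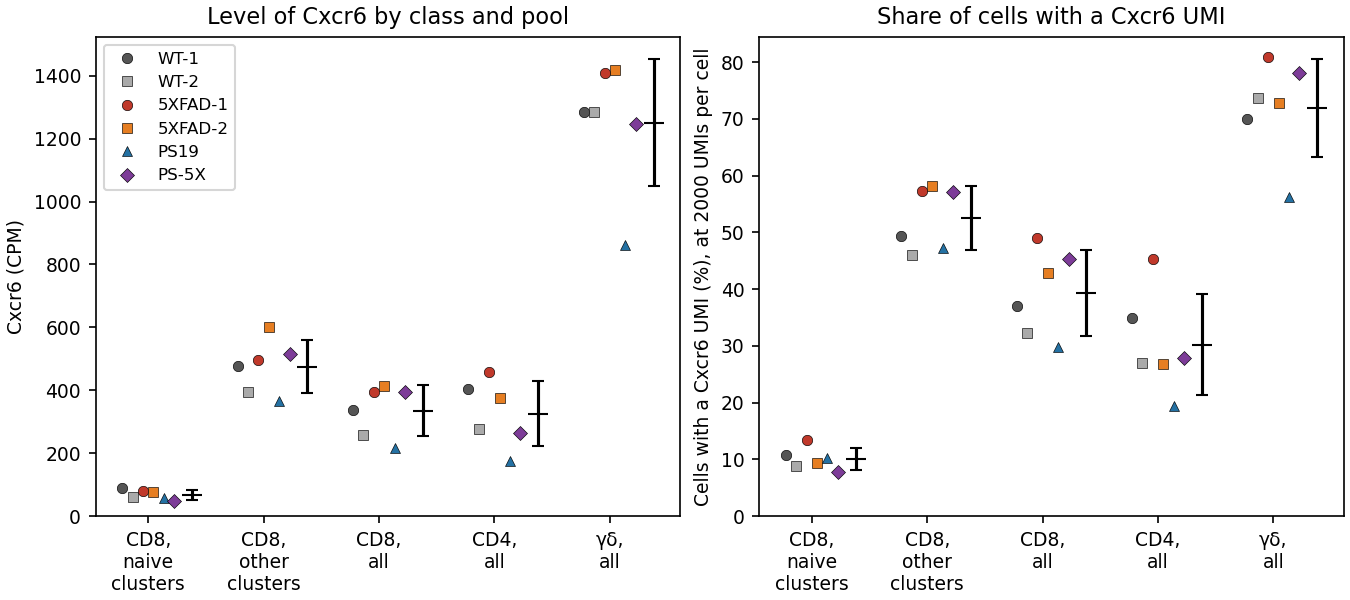
Cxcr6 in CPM (left) and the share of cells with a Cxcr6 UMI after each cell was thinned to 2000 UMIs (right), by class; points are pools, and black bars the mean ± SD over 6 pools. γδ T cells sit at 863 to 1417 CPM, above all CD8 and CD4 values, and PS19 is lowest among CD8, CD4 and γδ T cells.

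Within γδ T cells the level split by a sum of type 17 and receptor chain UMIs. Its threshold was chosen after the data were seen, as were those for CD4 T cells. Trdv4, a receptor chain gene at 1880 to 2580 CPM in γδ T cells, could meet it alone. Levels by Il17a or Il23r alone were not taken. Cells with 2 or more UMIs of Il17a, Il23r, Trdv4 and Cd163l1, genes of the IL-17 programme and of the receptor chains that go with it, held 1656 ± 138 CPM (mean ± SD, n = 6 pools, 386 cells), from 1509 to 1872. The other γδ T cells held 267 ± 66.1 (n = 5 pools, 163 cells), from 185 to 339. The groups did not overlap. At equal depth 92.2 ± 4.11% of the first and 28.5 ± 7.40% of the second had a Cxcr6 UMI.

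CD4 T cells split between naive and other cells. Without a Foxp3 UMI and with 3 or more UMIs of naive genes (Ccr7, Lef1, Igfbp4, Actn1, Dapl1, Tdrp and Nsg2), CD4 T cells held 73.6 ± 28.6 CPM (n = 6 pools), from 38.6 to 118. With fewer naive UMIs they held 596 ± 157 (n = 6), from 393 in PS19 to 811 in WT-1. The groups did not overlap. Cells with a UMI of Foxp3, the transcription factor of regulatory T cells, held 60.8 ± 49.6 (n = 4 pools, 120 cells), which overlapped the naive group. Cells with the TRAV11-TRAJ18 chain of invariant NKT cells, a T cell type that recognises lipids, held 829 CPM over 235 cells (exact Poisson 95% interval 787 to 873, counting error only), from 546 in PS19 to 1135 in 5XFAD-2. They were taken from all kept cells, not from CD4 T cells alone, and 146 of the 235 had no class.

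Among CD8 T cells Cxcr6 was low in the naive clusters and high in clusters led by Pdcd1, Hspa1a or resident genes. Clusters were made without Cxcr6, and 4 of 17 were naive by their Ccr7, Igfbp4, Nsg2 and similar genes. The naive clusters together held 68.2 ± 15.8 CPM (n = 6 pools) and the rest 475 ± 84.8. After thinning to 2000 UMIs, which left out 18 to 128 CD8 T cells a pool, 10.1 ± 1.95% of naive-cluster cells and 52.5 ± 5.58% of the others had a Cxcr6 UMI. The naive share, at median depths of 6798 to 9321 UMIs, is given as the background for the share of cells with a UMI. Without thinning the shares ran from 21.2 to 43.2% in naive clusters and from 66.8 to 80.8% in the others.

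The highest cluster found in all 6 pools was led by Rgs16, Ccl4 and Pdcd1, the gene of the inhibitory receptor PD-1, and held 730 and 897 CPM in WT, 770 and 846 in 5XFAD, 688 in PS19 and 745 in PS-5X. Next came the cluster led by Hspa1a and Hspa1b, heat shock genes that tissue dissociation can raise, and Cish, at 666 ± 86.9 (n = 6). A cluster led by the interferon-stimulated genes Cxcl10, Rsad2 and Ifit3 held 469 ± 100.5 (n = 5), and the largest cluster, led by Dipk2a and Gpr183, 414 ± 58.7 (n = 6). These last 2 overlapped, the first being higher in 4 of 5 pools. A cluster with Epha3, Lag3 and Pdcd1, mostly from PS-5X, held 798 in 5XFAD-1 and 586 in PS-5X. A cluster with the resident genes Zfp683 and Itgae had 20 or more cells in PS-5X alone and stood there at 811. A cluster of few UMIs per cell (median 1780), left unnamed, held 688 and 701 in 5XFAD-1 and PS-5X. One with the NK receptor genes Klra7 and Klra1 held 212 in WT-2 and 248 in PS-5X, and one with Zbtb16 and Il17re 329 in WT-1. A last cluster of 15 cells, led by B cell genes, had fewer than 20 cells in every pool and got no level.

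Effector cells of the circulating type held little Cxcr6. The cluster led by Cx3cr1, S1pr5 and Klrg1, markers of effector T cells that stay in blood, held 165 ± 33.1 CPM (n = 6 pools), between 118 and 208. The cluster with Eomes, Gzmk and Ccr2 held 175 ± 39.8, and the 2 were not ordered beyond the spread (the latter higher in 5 of 6 pools). Both lay below the Pdcd1, Hspa1a and Gpr183 clusters in every pool. Cycling cells (Pclaf, Ube2c, Birc5) held 247 ± 98.9 (n = 5), from 134 in WT-2 to 395 in 5XFAD-2. The lowest naive cluster held 36.4 ± 9.57.

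**Figure D2:**
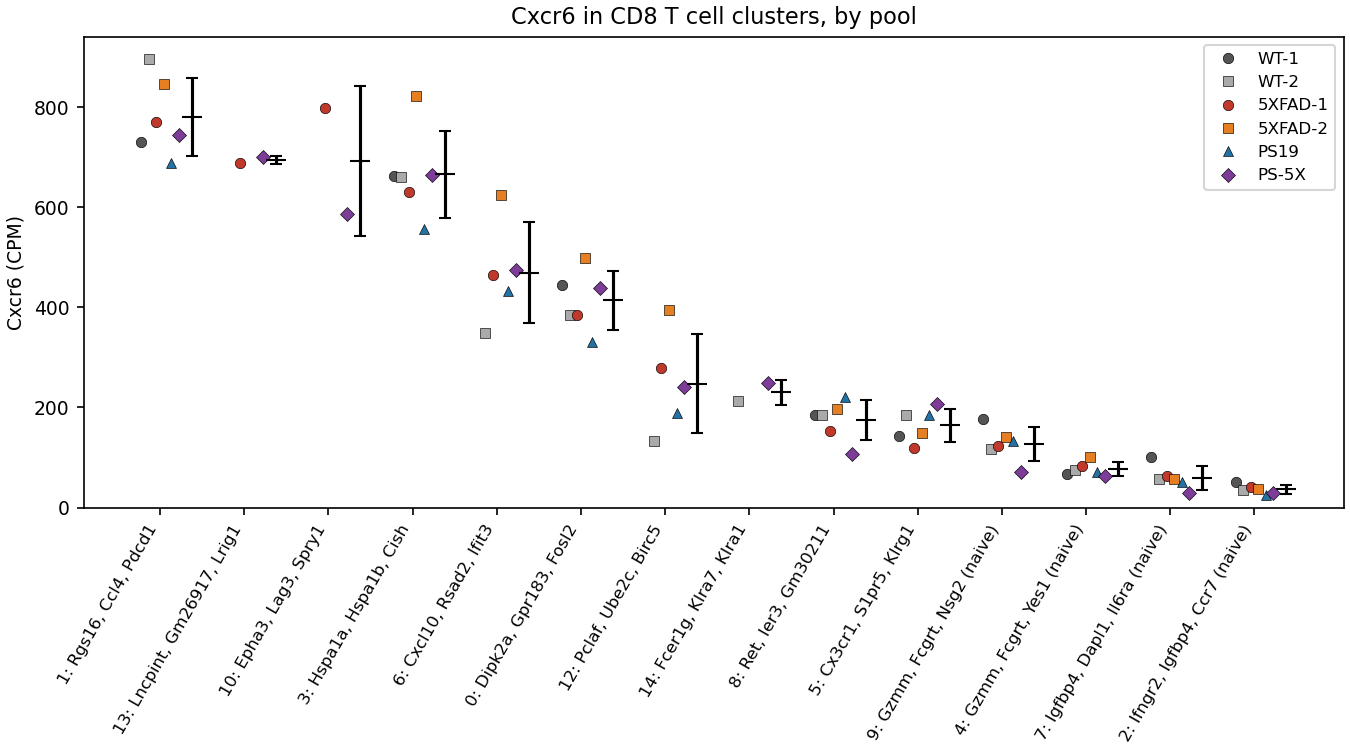
Cxcr6 in CPM in each CD8 cluster with 20 or more cells in at least 2 pools, ordered by mean and named by leading genes; points are pools and black bars the mean ± SD. The Pdcd1 cluster sits at 688 to 897, the Cx3cr1 cluster at 118 to 208 and the naive clusters at 24.6 to 176.

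Cxcr6 was higher in CD8 T cells of expanded clones. A clone is the authors' clonotype within a pool, and it is expanded at 2 or more CD8 cells. Expanded cells held 719 and 434 CPM in WT, 575 and 667 in 5XFAD, 473 in PS19 and 551 in PS-5X. Cells of single-cell clones held 254 and 180 in WT, 278 and 281 in 5XFAD, 155 in PS19 and 248 in PS-5X. All expanded values exceeded all singleton values. The log2 difference was 1.13 ± 0.06, a 2.20-fold difference (2.01 to 2.40, edgeR adjusted p = 9.27e-09, 6 of 6 pools), where 29% of genes passed. It was 1.08 to 1.17 when each pool was left out, and 1.11 without WT-1.

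Outside the naive clusters the gap was smaller. There singletons held 392.2 and 351 CPM in WT, 406 and 532.5 in 5XFAD, 301 in PS19 and 428 in PS-5X, and expanded cells 718 and 436 in WT, 581 and 677 in 5XFAD, 487 in PS19 and 562 in PS-5X. Within each pool expanded cells were higher, while the ranges overlapped across pools. They were higher by 0.47 ± 0.06 on the log2 scale, 1.39-fold (1.27 to 1.51, edgeR adjusted p = 0.00023, 6 of 6 pools, 5.87% of genes passing), and by 0.42 without WT-1. Without the pool block the adjusted p was 0.12 (edgeR), over a range of 9.88e-23 (no gene filter) to 0.12 in all alternatives. Among CD4 T cells expanded clones were at 816 and 675.5 in WT, 729.5 and 1165 in 5XFAD, 392.3 in PS19 and 465 in PS-5X. CD4 singletons were at 139 to 362 and did not reach the lowest of these. That difference was 1.32 ± 0.12 on the log2 scale (edgeR adjusted p = 1.21e-05, 6 of 6 pools, 8.47% of genes passing), and 1.36 without WT-1.

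Larger CD8 clones held more Cxcr6 than small ones in most pools. Clones of 10 or more cells were at 702 and 442.5 in WT, 704 and 753 in 5XFAD, 690.0 in PS19 and 624 in PS-5X. Clones of 2 to 4 were at 692 and 407 in WT, 440 and 456 in 5XFAD, 374 in PS19 and 422 in PS-5X. WT-1 and WT-2 differed little between sizes, and the other 4 pools by a wider margin. The fit gave 0.48 ± 0.10 on the log2 scale (edgeR adjusted p = 0.028, 6 of 6 pools, 1.99% of genes passing). The call was lost when 5XFAD-1, 5XFAD-2, PS19 or PS-5X was left out (0.44, 0.45, 0.40 and 0.47, edgeR adjusted p = 0.12, 0.1, 0.1 and 0.11) and without the pool block (adjusted p = 0.24), over a range of 3.1e-07 (no gene filter) to 0.24 in all alternatives. Without WT-1 it was 0.55 (edgeR adjusted p = 0.015). From clones of 5 to 9 to clones of 10 or more the level went up in 3 of 5 pools. In WT-1, expanded cells include cells with receptors of other pools: its 128 CD8 T cells with such a receptor held 634 CPM, and its other 337 CD8 T cells 234. The WT-1 clones of 10 or more had 18 and 12 cells, all with a receptor of another pool. In 5XFAD-1 such a receptor was carried by 122 of 126 cells of the largest clone and 98 of 98 of the next. In PS19 the same held for 24 of 24 and 23 of 23 cells, and in PS-5X for 0 of 361 and 106 of 106.

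**Figure D3:**
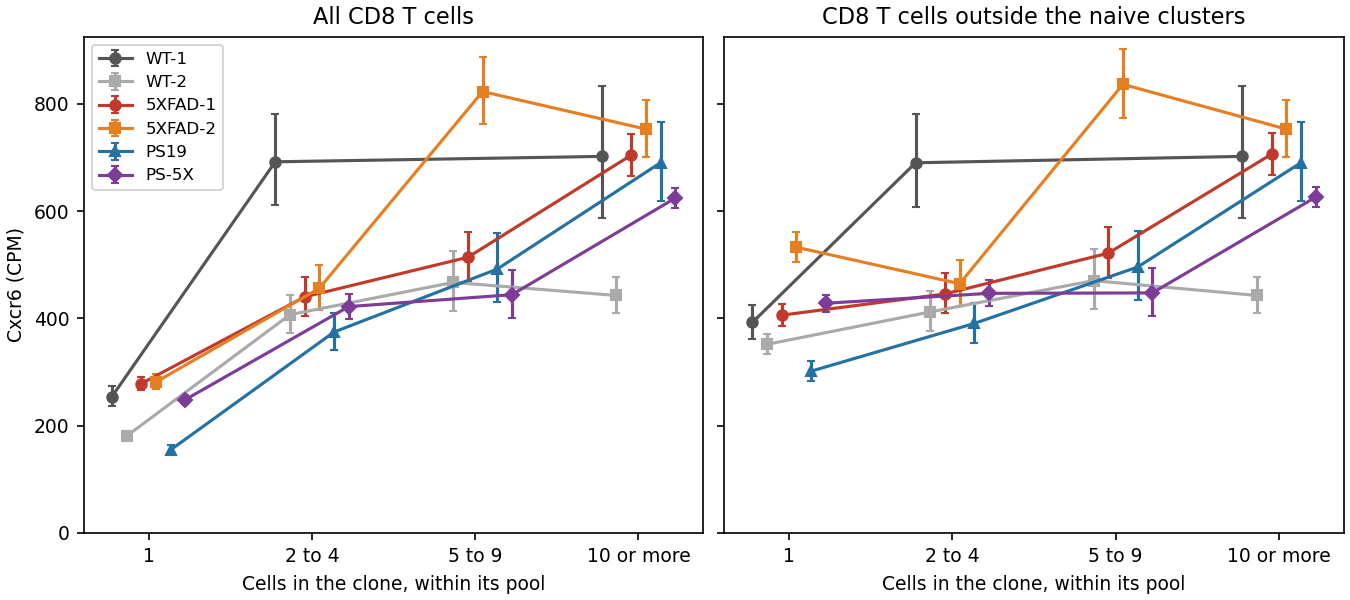
Cxcr6 in CPM against the number of CD8 cells in the clone, for all CD8 T cells (left) and those outside the naive clusters (right); points are pools and bars exact Poisson 95% intervals, counting error only. Singletons of all CD8 T cells sit at 155 to 281 and clones of 10 or more at 442.5 to 753, while the step is smaller outside the naive clusters.

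Single clones differed more than pools did. Of the 10 largest CD8 clones of each pool, 26 had 20 or more cells, none of them in WT-1. Their Cxcr6 ran from 23.7 to 996 CPM with a median of 623. In WT-2 the largest clone, of 49 cells, held 817 (exact Poisson 95% interval 690 to 961) with 63.3% of its cells in the 2 Pdcd1 clusters, and the next, of 44 cells, held 115 (68.3 to 182) with 93.2% in the Cx3cr1 cluster. The 4 clones with most of their cells in the Cx3cr1 cluster were all in WT-2 and held 23.7 to 387. The largest clone of all, 361 cells of PS-5X with 80.9% in the Pdcd1 clusters, held 567 (532 to 603).

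Membership of the Cx3cr1 cluster did not cover the whole range. A 5XFAD-2 clone of 20 cells held 175 (100.1 to 285) and a PS-5X clone of 45 cells 323 (253 to 406) with no cell in that cluster. A PS-5X clone of 43 cells held 996 (875 to 1129). Across the 26 clones, which share libraries, the level and the share of cells in the Cx3cr1 cluster had a Pearson correlation of -0.59.

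**Figure D4:**
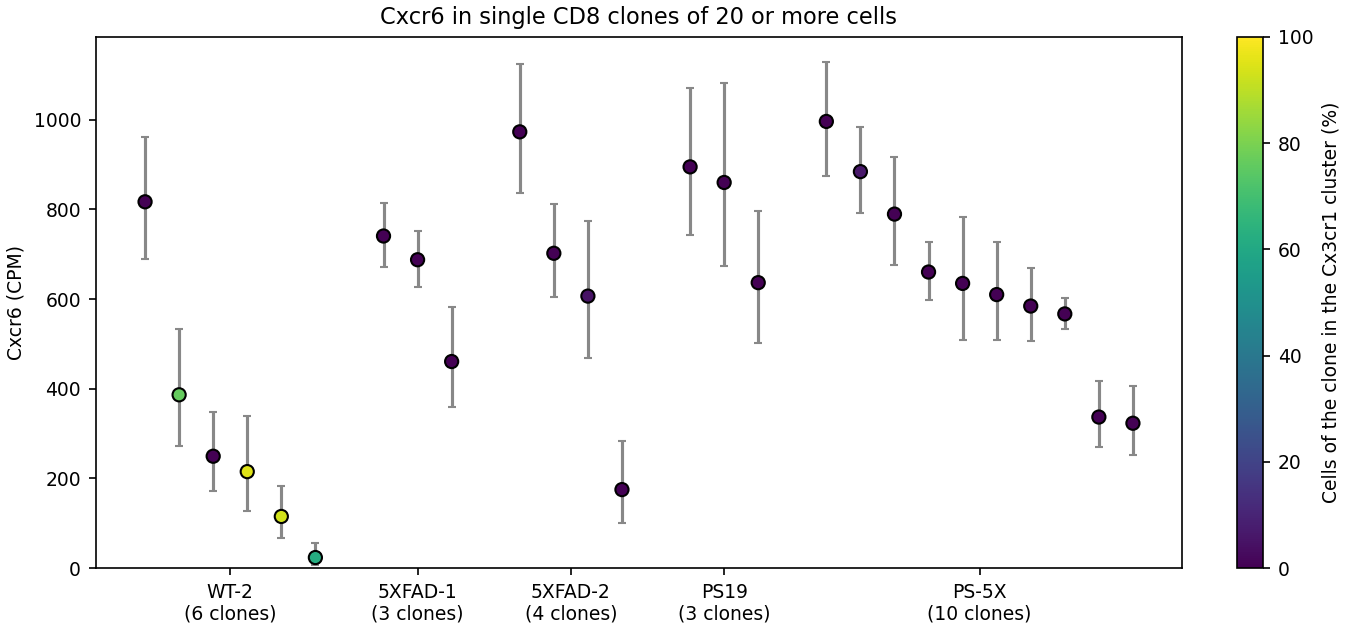
Cxcr6 in CPM in each of 26 CD8 clones of 20 or more cells, grouped by pool; bars are exact Poisson 95% intervals and colour is the percent of the clone's cells in the Cx3cr1 cluster. The 4 clones led by that cluster are in WT-2 at 23.7 to 387, and the clones of 5XFAD-1, at 461 to 741, and PS19, at 637 to 895, all lie above them.

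In CD8 T cells Cxcr6 was higher in the 3 pools with amyloid transgenes. By the levels above, they held 394 to 415 CPM and the pools without amyloid 217 to 336. All amyloid pools lay above all others. The share of all genes that separated these pools in the same way is not given. With tau as a second term the log2 difference was 0.59 ± 0.11, 1.51-fold (1.26 to 1.80), but did not pass (edgeR adjusted p = 0.18). No gene of 11740 passed in that fit (0% called), 1131 having an unadjusted p below 0.05 and DESeq2 calling 93. DESeq2 gave Cxcr6 an adjusted p of 0.0017, and without WT-1 edgeR gave 0.73 on the log2 scale (adjusted p = 0.034). Leaving out the WT-1 cells with receptors of other pools gave 0.75 (edgeR adjusted p = 0.024), and the adjusted p of all alternatives ranged from 4.6e-07 (no gene filter) to 1. Without 5XFAD-1 the difference was 0.65 (edgeR adjusted p = 0.53).

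Within runs the direction was the same. PS-5X stood 1.81-fold above PS19, 5XFAD-2 1.62-fold above WT-2 in the separate run, and 5XFAD-1 1.18-fold above WT-1. WT-1 held 336 CPM in CD8 T cells, and 234 without its cells with receptors of other pools. The share of CD8 T cells with a Cxcr6 UMI at equal depth was 49.0 and 42.8% in 5XFAD and 45.3% in PS-5X. It was 36.95 and 32.3% in WT and 29.9% in PS19. The groups did not overlap. The means were 12.65 percentage points apart, which a two-sided exact permutation test put at p = 0.10 (n = 3 and 3), the smallest p this design allows. The gap was 13.75 points among pools of the common run and 10.45 between those of the separate run, and 14.6 points without WT-1. Naive clusters held 18.4 to 31.0% of CD8 T cells in amyloid pools and 29.9 to 46.5% in the others, and expanded clones 40.8 to 49.9% against 21.4 to 33.4% of the cells with a receptor.

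Outside the naive clusters 5XFAD pools held 497.5 and 601 CPM and PS-5X 514. WT pools held 478 and 395 and PS19 367. 5XFAD-1 and WT-1 were 1.04-fold apart, though WT-1 held 374 without its cells with receptors of other pools. The groups did not overlap, but the share of all genes that separated these pools likewise is not given. The log2 difference was 0.42 ± 0.10 (edgeR adjusted p = 0.25, 0% of genes called, 1076 with an unadjusted p below 0.05, 50 by DESeq2). Without WT-1 it was 0.497 (edgeR adjusted p = 0.067). Among singletons outside the naive clusters it was also 0.42 ± 0.11 (edgeR adjusted p = 0.49; 0% called, 684 below an unadjusted p of 0.05, 3 by DESeq2), and 0.47 without WT-1 (edgeR adjusted p = 0.11). With the run as a replicate block and WT-1 left out together it passed (0.56, edgeR adjusted p = 5.73e-05). At equal depth 57.1 to 58.1% of such CD8 T cells had a Cxcr6 UMI in the amyloid pools and 46.1 to 49.3% in the others (a gap of 9.99 points with p = 0.10 by the same exact permutation test). Within the Pdcd1, Hspa1a and Gpr183 clusters the levels of the 2 sets of pools overlapped. 5XFAD against WT alone gave 0.47 ± 0.13 (edgeR adjusted p = 1.0, 0% called, 427 below an unadjusted p of 0.05, 4 by DESeq2), and 0.64 without WT-1 (edgeR adjusted p = 0.27). With the run as a replicate block the edgeR adjusted p was 0.0039, on 1 residual degree of freedom, over a range of 0.0039 to 1 in all alternatives.

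In CD4 and γδ T cells the amyloid difference did not pass. It was 0.41 ± 0.15 on the log2 scale in CD4 T cells (edgeR adjusted p = 1.0, 0% of genes called, 481 below an unadjusted p of 0.05, 2 by DESeq2) and 0.27 ± 0.13 in γδ T cells (edgeR adjusted p = 0.70, 0.509% called), with overlapping groups in both. Without WT-1 the values were 0.58 and 0.29 (edgeR adjusted p = 0.82 and 0.55). Pool by pool the amyloid side was higher in CD4 T cells, 1.135-fold for 5XFAD-1 over WT-1, 1.35-fold for 5XFAD-2 over WT-2 and 1.52-fold for PS-5X over PS19. In γδ T cells the same pairs gave 1.096-, 1.102- and 1.44-fold. WT-1 held 403 CPM in CD4 T cells, and 304 without its cells with receptors of other pools. The CD4 difference passed with the run as a replicate block and WT-1 left out (0.51, edgeR adjusted p = 0.0074). The difference of the amyloid effect between CD8 and CD4 T cells was 0.18 ± 0.17 (edgeR adjusted p = 1.0, 0.00912% called) and turned to -0.017 without PS-5X; without WT-1 it was 0.072. The gap between expanded and singleton CD8 T cells differed between pools with and without amyloid by -0.25 ± 0.10 (edgeR adjusted p = 0.53, 0.0456% called), and by -0.23 without WT-1.

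The tau transgene showed no difference in CD8 T cells that passed a test. There its log2 difference was -0.19 ± 0.12 (edgeR adjusted p = 0.89, 0% called, 632 below an unadjusted p of 0.05, 25 by DESeq2), with a 95% interval of 0.723- to 1.06-fold. It was -0.015 without PS19, -0.38 without PS-5X and -0.098 without WT-1, none passing. In CD4 T cells PS19 (175) and PS-5X (266) were the 2 lowest pools, WT-2 following closely at 278. The tau term there, read after those values were seen, was -0.75 ± 0.17 (edgeR adjusted p = 0.45, 0.00964% called). It passed with the run as a replicate block (-0.93, edgeR adjusted p = 0.008) and by DESeq2 (adjusted p = 0.036), and its range over all alternatives was 0.0002 to 1. Without WT-1 it was -0.62 (edgeR adjusted p = 0.51).

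Genes that go with Cxcr6 were sought by setting CD8 T cells with a Cxcr6 UMI at 2000 UMIs per cell against those without, pool by pool. Of 9335 genes, 843 were higher and 829 lower in Cxcr6-positive cells (edgeR, adjusted p under 0.05, 17.9% called, 1228 to 1592 genes when each pool was left out). Among the highest was Fgl2, which encodes a fibrinogen-like protein, at 142 ± 16.5 against 46.2 ± 13.3 CPM (mean ± SD, n = 6 pools). Its log2 difference was 1.604 ± 0.09 (edgeR adjusted p = 2.16e-17). The chemokine genes Ccl3 (1.48) and Ccl4 (1.32), the cytokine gene Tnf (1.18), the integrin gene Itga1, which encodes CD49a (1.30), the E-cadherin gene Cdh1 (1.24), the residency transcription factor gene Zfp683 (1.31), Cish, an inhibitor of cytokine signalling (1.22), and the inhibitory receptor genes Pdcd1 (1.15) and Ctla4 (1.16) rose with it in 6 of 6 pools. So did Chn2 (1.59), Qpct (1.31), Pygl (1.14) and the γ chain genes Trgv2 (1.33) and Tcrg-C2 (1.20), whose counts are uncertain because near-identical copies share reads.

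The falls were those of naive and recirculating cells. Ccr7, the lymph node homing receptor, was at 106 ± 37.9 in Cxcr6-positive and 621 ± 139 in Cxcr6-negative cells, a log2 difference of -2.54 ± 0.06 (edgeR adjusted p = 8.37e-29). The cytokine receptor genes Il6ra and Ifngr2 fell by 2.76 and 2.13 on the log2 scale and the egress receptor gene S1pr1 by 1.70. Igfbp4, Actn1, Dapl1, Nsg2, Cmah, Tdrp, Slamf6, Pde2a, Lef1 and Rflnb also fell, with log2 differences from -2.65 to -1.65, each in 6 of 6 pools.

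Many lists of genes moved largely as blocks. Of the tissue residency genes other than Cxcr6, 18 of 18 rose, with a median log2 difference of 0.94 beside 0.00 over all genes tested. Of 9 egress and circulation genes 9 fell (median -1.23), and of the 8 transcription factor genes of quiescent T cells 8 fell (median -1.22), Tcf7 by 1.15 and Klf2 by 1.25. Among 13 tested transcription factor genes of effector and resident T cells 12 rose, including Irf4 (0.96), Bhlhe40 (0.88) and Id2 (0.74), while Eomes was at -0.04 (edgeR adjusted p = 0.80). Of 14 inhibitory receptor and exhaustion genes 12 rose, Havcr2 by 1.40 and Lag3 by 1.10. Of 14 early T cell receptor response genes 13 rose, Egr2 by 1.31. Type I interferon response genes rose in 8 of 13 tested (median 0.49), while cell cycle genes fell in 5 of 10 (median -0.57). NK cell genes, 7 tested, had 1 rise. Cytotoxic effector genes split: 11 of 16 rose, among them Gzmb (0.96) and Ifng (0.99), Gzmm (-1.38) and Klrd1 (-0.36) fell, and Prf1 stood at -0.01.

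Other chemokine receptors went both ways. Cxcr3 (0.76), Ccr8 (1.48) and Ccrl2 (0.54) rose, and Ccr7, Ccr9 (-2.34), Cxcr5 (-1.41) and Cx3cr1 (-1.23) fell, of 10 tested, Ccr9 being lower in 5 of 6 pools. Cxcr4 was at -0.00 and Ccr2 at 0.08 (edgeR adjusted p = 1.00 and 0.71). Among 15 tested genes of the CXCL16 axis and of receptor signalling 6 rose, the RGS genes Rgs1, Rgs2 and Rgs16, which shorten G protein signals, by 1.02, 0.67 and 1.06 (the first 2 stand in the residency list too) and Gng2 by 0.79, while the sheddase genes Adam10 and Adam17, whose products release CXCL16, were at 0.09 and -0.13 (edgeR adjusted p = 0.60 and 0.50). Of the dissociation and heat shock genes 9 of 14 rose, Hspa1b by 0.68. Fyco1, which overlaps Cxcr6, rose by 0.38 ± 0.10 (edgeR adjusted p = 0.0032).

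Outside the naive clusters fewer genes differed, 178 higher and 188 lower of 8905 (edgeR, 4.11% called). Of the 178 higher genes 157 were also higher in all CD8 T cells, which is 88.2% of them and 18.6% of the 843. Of the 188 lower genes 119 were shared, 63.3% of them and 14.4% of the 829. The 2 comparisons share cells. Itgae, which encodes CD103, had the largest rise, from 29.5 ± 15.8 to 74.6 ± 41.3 CPM, a log2 difference of 1.33 ± 0.12 (edgeR adjusted p = 1.55e-11). Fgl2 (0.98), Pygl (0.94), Cdh1 (0.84), Zfp683 (0.83), Chn2 (0.77), Qpct (0.68), Ppp2r2c (0.82), a phosphatase subunit gene, and the γ chain genes Tcrg-C4 (0.87) and Tcrg-C2 (0.82) followed. Tcrg-C4 and Ppp2r2c lost their calls without PS-5X, and Tcrg-C4, at 0.26, without the WT-1 cells with receptors of other pools. Tcrg-C4, Ppp2r2c and Chn2 did not pass by DESeq2. Without the pool block 34 genes passed. Itgae, Pygl, Cdh1, Zfp683, Chn2, Qpct, Tcrg-C4 and Tcrg-C2 were no longer among them, nor were the falling genes Cx3cr1, S1pr5, Klrg1 and Cd74.

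The falls outside the naive clusters included genes of naive cells, of circulating effector cells and of B cells. Of 14 naive and central memory genes tested there 10 fell (median -0.75), Il6ra by 2.37 and Dapl1 by 1.31, beside 14 of 15 in all CD8 T cells (median -1.93). Cx3cr1 was at 14.8 ± 13.3 in positive and 66.5 ± 53.3 in negative cells, a log2 difference of -1.91 ± 0.17 (edgeR adjusted p = 1.07e-11). S1pr5 fell by 1.83, Klrg1 by 1.63, Rasgrp2 by 1.21, Cmah by 1.35, Slamf6 by 1.26 and Pde2a by 1.22, each in 6 of 6 pools. Cd74 and Igkc, which B cells express strongly, fell by 1.92 and 1.30. The Igkc call was lost at a Leiden resolution of 1.6 (-0.63, edgeR adjusted p = 0.062). In all CD8 T cells Igkc stood at -0.04 (edgeR adjusted p = 0.95, higher in 3 of 6 pools). B and plasma cell markers summed to 60.6 to 248 CPM in all Cxcr6-positive and 115 to 220 in Cxcr6-negative CD8 T cells. In PS19 the positive cells had the higher sum (248 against 146), and in the other pools the lower. These sums cover all CD8 T cells, and their part in the falls outside the naive clusters was not tested. Jchain, a plasma cell gene, was at -4.37 outside the naive clusters (edgeR adjusted p = 3.86e-09, higher in 1 of 6 pools). In all CD8 T cells it was at 2.504 (edgeR adjusted p = 0.006, higher in 2 of 6 pools). Thinning was drawn anew for each comparison, so the same cell could be positive in 1 and negative in the other. Whether this gave the opposite signs was not tested. Microglia markers summed to 219 to 250 and 211 to 269, and their defining genes P2ry12, Tmem119 and Csf1r were at 0 to 1.36 in every pool.

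In the lists, the residency genes kept 13 rises of 18 outside the naive clusters (median 0.45 beside -0.00 over all genes) and the egress genes 9 falls of 9 (median -1.06). Inhibitory receptor genes rose in 7 of 14, Lag3 by 0.63 and Pdcd1 by 0.49. Cytotoxic genes were divided, with 6 rises, Ccl3 by 0.68 and Ifng by 0.47, and 5 falls, Ccl5 by 0.39 and Gzma by 0.48. Eomes fell here by 0.44. Some other lists moved less than in all CD8 T cells. Of 13 tested early T cell receptor response genes 3 rose. Among 13 tested transcription factor genes of effector and resident T cells 3 rose and 2 fell. Type I interferon response genes, 13 tested, had 1 rise and 2 falls. Of 7 quiescence factor genes 3 fell, and of 14 dissociation and heat shock genes 2 rose and 2 fell. Cell cycle genes moved more: 6 of 10 fell (median -1.08), Birc5 by 1.66, beside 5 of 10 in all CD8 T cells (median -0.57).

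**Figure D5:**
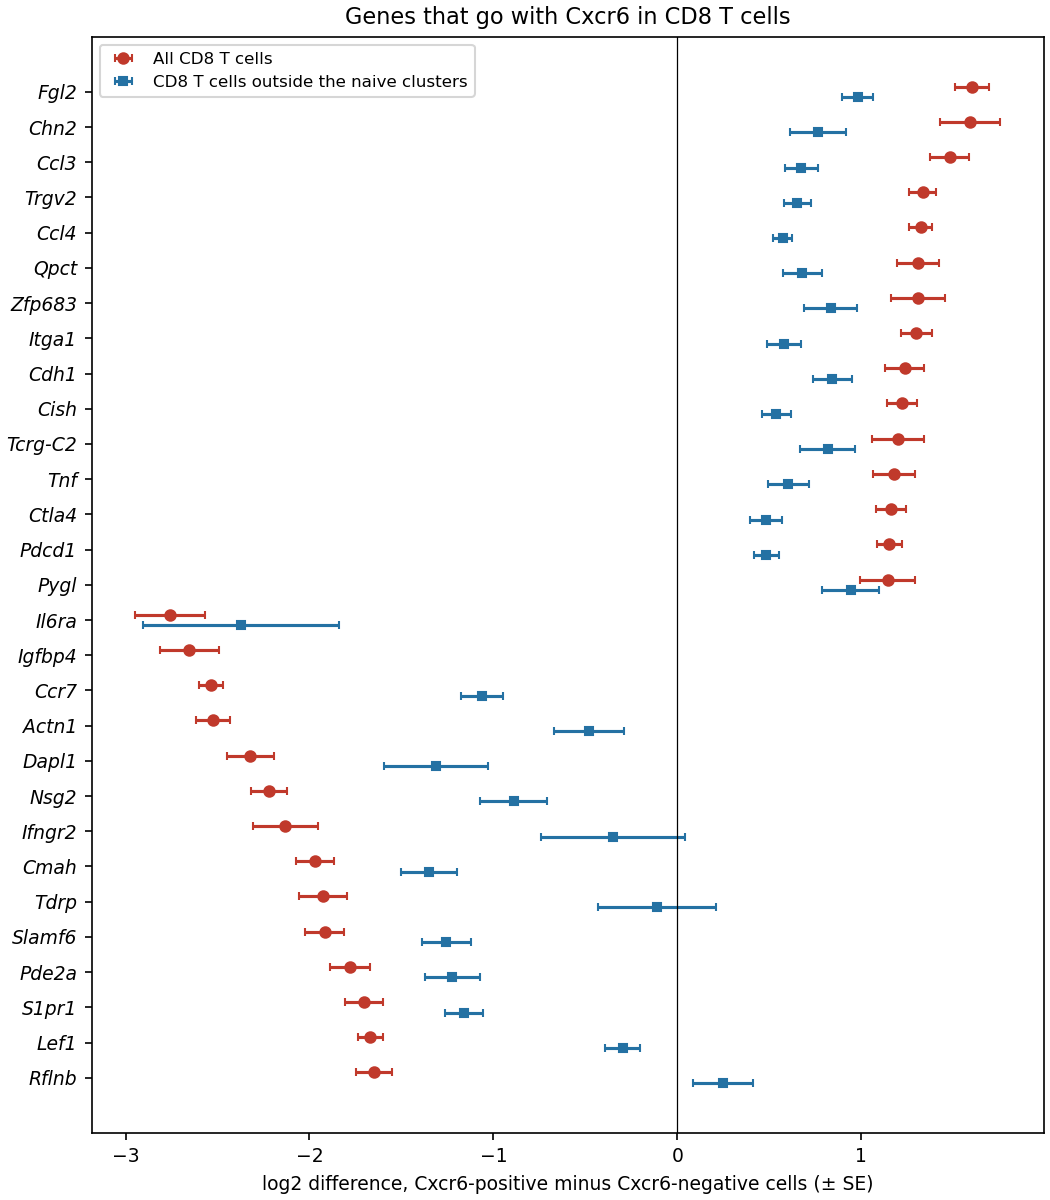
The log2 difference (± SE) between Cxcr6-positive and Cxcr6-negative CD8 T cells for the 15 genes that rose most and 14 of the 15 that fell most, in all CD8 T cells (circles) and outside the naive clusters (squares, absent for Igfbp4, which was not tested there). Fgl2 is highest at 1.604 and 0.98, and rises such as Pdcd1 are smaller outside the naive clusters.

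A second measure of likeness gave overlapping names. Over 52 sums of 14 CD8 clusters and 6 pools with 50 or more cells, which share libraries, the highest Pearson correlations of log2(CPM + 5) with Cxcr6 among 5900 genes were those of Padi2 (0.97), Mdfic (0.94), Fgl2 (0.93), Itga1 (0.93), Ctsw (0.93), Cish (0.93), Ubash3a (0.92), Ptprj (0.92), Nedd9 (0.92) and Cd38 (0.92). The lowest were Arl5c (-0.89), S1pr1 (-0.89), Lef1 (-0.88), Cmah (-0.88) and Cd55 (-0.87). Among the 34 sums outside the naive clusters Padi2 stood at 0.90, Ctsw, a granule protease gene, at 0.88, Cd38 at 0.70, Arl5c at -0.92 and Lef1 at -0.46.

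In CD4 T cells 562 genes were higher and 442 lower in Cxcr6-positive cells, of 6799 (edgeR, 14.8% called). Of the 562 higher genes 395 were also higher in CD8 T cells, which is 70.3% of them and 46.9% of the 843. Il17a had the largest rise, at 384 ± 605 against 10.1 ± 21.6 CPM, a log2 difference of 4.60 ± 0.27 (edgeR adjusted p = 1.55e-17, 6 of 6 pools), with a wide spread between pools. Xcl1, a chemokine gene, rose by 2.62, Itga1 by 2.66, Fgl2 by 2.44, the cytokine gene Il4 by 2.40, Cdh1 by 2.20, Jaml by 2.15, Krt83 by 3.03, Tmem176b by 2.16 and Nedd4 by 2.14. Igfbp4 fell most, from 383 ± 108 in negative to 8.02 ± 7.96 in positive cells, a log2 difference of -5.95 ± 0.24 (edgeR adjusted p = 5.33e-23). Ccr7, Actn1, St8sia6, Atp1b1, Il6ra, Dapl1, Nsg2 and Tdrp fell too, with log2 differences from -4.41 to -3.00. The residency genes rose in 18 of 18, and among 8 tested chemokine receptors Cxcr3 (0.96), Ccr2 (1.11), Ccr8 (1.90) and Ccrl2 (1.27) rose.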

How the data were processed

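Counts were those the authors deposited: UMIs of each gene in each cell barcode, from Cell Ranger 6.0.1 per the submitters' processing notes. Those notes list GRCm38 and mm10 as builds but say nothing of how each was used. The deposited receptor table holds contigs, of which the other columns used, V and J genes, CDR3 and clonotype names, are text; its UMI counts per contig were not used. A barcode was kept from 500 detected genes upward if mitochondrial UMIs made up 10% or less, and the highest Scrublet scores were removed as doublets at 0.8% per 1000 barcodes. CD4 T cells had 1 or more Cd4 UMIs and γδ T cells 2 or more Trdc UMIs, with at most 1 Cd8a or Cd8b1 UMI, and all classes 2 or more CD3 UMIs. UMIs were summed per pool and group (10 or more cells) and fitted in R 4.3.3 by the quasi-likelihood test of edgeR 4.0.16, after filterByExpr and TMM scaling, with Benjamini-Hochberg adjustment over every gene tested, with pool as block within pools and amyloid and tau as terms between pools. Receptor genes were left out of the counts of called genes between clone sizes. CD8 T cells were clustered with Leiden (scanpy 1.11.5, resolution 1.0), without Cxcr6 and receptor genes. Levels are CPM of unscaled sums, and those in tests of many genes are scaled by TMM. Named genes passed, moved one way in all 6 pools and averaged 20 CPM or more; they are the top 15 in each direction in CD8 T cells and the top 10 elsewhere, beside examples from the lists. Some genes are not reported here and were left out of the lists. Replicate number is the sequencing run in the labels, so it entered as a block in an alternative fit between pools; deviations of same-numbered WT and 5XFAD pools correlated at 0.26 over 5881 genes. DESeq2 1.42.0 and the other alternatives are in the closing section. On simulated counts, 97% of genes changed by 1 on the log2 scale and 73% of those changed by 0.5 were recovered for expanded against singleton CD8 T cells (10572 genes), and 86.9% and 24% for amyloid in CD8 T cells (11510 genes). The simulation gave every gene the same spread around its mean, so these shares do not carry over to the real counts. Intervals cover counting error only where named Poisson. Cxcr6, the lists, the UMI thresholds for states and the tests were chosen with earlier results of these data known.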

Additional observations from a re-analysis of the deposited data

How the results depend on the processing

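With no filter on low genes, the log2 differences of Cxcr6 were 0.20 for CD8 against CD4, 0.60 for amyloid in CD8, 0.43 for amyloid in CD8 outside the naive clusters and in its singletons, and -0.73 for tau in CD4, each with an adjusted p under 0.05; adjusted p-values in these fits were far below those of other settings and are not relied on, and the cause was not tested. CD8 against CD4 was 0.38 with classes from clusters. For amyloid in CD8, DESeq2 gave 0.59 and removal of WT-1 cells with receptors of other pools 0.75, both passing. Without the pool block, expanded against singleton CD8 outside the naive clusters (0.48) and large against small clones (0.47) lost their calls. With the replicate block, 5XFAD against WT (0.48) and tau in CD4 (-0.93) passed, as did tau in CD4 by DESeq2 (-0.75). The block together with WT-1 left out, an alternative chosen after seeing the data, made calls for singletons outside the naive clusters (0.56), CD4 amyloid (0.51) and CD4 tau (-0.786); 5XFAD against WT could not be fitted that way, and the replicate block, which is the run, changed no other call. Leaving out each pool gave 0.47 to 0.73 for amyloid in CD8, 0.40 to 0.57 for large against small clones and -0.017 to 0.37 for CD8 against CD4 amyloid, -0.017 without PS-5X.

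Genes called for Cxcr6-positive cells were 872 in CD8, 118 outside the naive clusters and 566 in CD4 by DESeq2, 833 and 34 without the pool block, and 3371 with no thinning. For the named genes, 21 values outside the naive clusters, most without the pool block, and 1 in CD4 lost their call, and none reversed. The other 267 values of Cxcr6 and of the counts were taken as unchanged. For levels of Cxcr6 this meant the same direction and side of the threshold. Counts of called genes had to stay within a fixed factor of the main count, and differences in share had to keep direction.

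γδ T cells were few, at 30 in WT-1, though as deep as the other classes there (median 8278.5 UMIs). With 3 pools against 3, permutation p cannot fall below 0.10, and PS19 and PS-5X have no second pool.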
